A study of Mus musculus with 16 samples.

Results

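Matrix metalloproteinases (MMPs) and tissue inhibitors of metalloproteinases (TIMPs) were followed in microglia/macrophages of the mouse brain on day 3 after stroke by occlusion of the middle cerebral artery (MCAO) or after sham surgery. The 10 genes described were taken by symbol from a table of counts for 32166 genes, and all 10 were found. They are the gelatinases Mmp2 and Mmp9, the collagenases Mmp8 and Mmp13, the macrophage elastase Mmp12, the membrane-type enzyme Mmp14, Mmp19, and the inhibitors Timp1, Timp2 and Timp3. The 16 RNA libraries came from 4 MCAO Vdr-cKO, 4 MCAO control, 3 sham Vdr-cKO and 5 sham control samples. Vdr-cKO mice were Cx3cr1CreER/+; Vdrf/f and control mice were Vdrf/f littermates, all of C57BL/6 strain and 10 to 12 weeks of age. In the methods, tamoxifen preceded surgery and was not limited to 1 genotype. The Cre that deletes Vdr, the vitamin D receptor gene, sits in 1 of the Cx3cr1 alleles of Vdr-cKO mice. Deletion of Vdr and loss of 1 Cx3cr1 allele therefore differ together between the genotypes. The sample notes describe sorted CD11b+ cells of intermediate CD45 and removal of ribosomal RNA, whereas the methods describe CD11b microbeads and poly-A mRNA, and these accounts were not reconciled. Whether 1 library stands for 1 mouse is not stated, so the p-values measure the spread between libraries only.

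MMPs are zinc-dependent proteases that cut the proteins of the extracellular matrix, and most are secreted as inactive precursors. Gelatinases degrade denatured collagen and the collagen of basement membranes, and are known for their part in opening the blood-brain barrier after stroke. Collagenases cleave fibrillar collagen, the macrophage elastase cleaves elastin, and membrane-type MMPs act at the cell surface. TIMPs bind the active site of these enzymes and block it. TIMP2 has a second role, since together with membrane-type MMP14 it binds the MMP2 precursor and allows its activation.

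Promoters are shown for 3 of the members that changed most between MCAO and sham surgery and for Timp3, which changed in the other direction. They are the 250 bases before the annotated start on GRCm38.p6 from RefSeq. The promoter table held 7 of the 10 members with 8 starts. Mmp2, Mmp9 and Mmp19 were not among them. The windows are chr9:7272264-7272513 for Mmp13, chr9:7347124-7347373 for the downstream start of Mmp12, chrX:20869916-20870165 for Timp1 and chr10:86300162-86300411 for Timp3, all on the plus strand. Capitals mark AP-1 letters in Mmp12 and Mmp13, a TATAA in Mmp13 and Timp3, an interferon-response element in Mmp13 and a GC box in Timp1 and Timp3.
Mmp13: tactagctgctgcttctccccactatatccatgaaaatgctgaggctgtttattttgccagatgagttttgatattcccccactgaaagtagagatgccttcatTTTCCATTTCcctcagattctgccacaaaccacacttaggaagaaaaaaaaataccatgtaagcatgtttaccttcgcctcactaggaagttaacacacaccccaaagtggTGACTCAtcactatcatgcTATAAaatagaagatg
Mmp12: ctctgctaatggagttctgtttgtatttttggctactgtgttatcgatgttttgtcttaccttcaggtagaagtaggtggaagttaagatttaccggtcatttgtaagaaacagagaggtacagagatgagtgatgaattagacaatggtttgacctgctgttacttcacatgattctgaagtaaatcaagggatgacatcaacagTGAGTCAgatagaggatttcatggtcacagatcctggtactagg
Timp1: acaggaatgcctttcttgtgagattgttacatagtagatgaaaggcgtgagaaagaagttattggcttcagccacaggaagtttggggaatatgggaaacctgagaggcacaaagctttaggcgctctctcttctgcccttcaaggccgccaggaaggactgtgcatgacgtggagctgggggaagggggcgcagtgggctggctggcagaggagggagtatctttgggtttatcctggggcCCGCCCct
Timp3: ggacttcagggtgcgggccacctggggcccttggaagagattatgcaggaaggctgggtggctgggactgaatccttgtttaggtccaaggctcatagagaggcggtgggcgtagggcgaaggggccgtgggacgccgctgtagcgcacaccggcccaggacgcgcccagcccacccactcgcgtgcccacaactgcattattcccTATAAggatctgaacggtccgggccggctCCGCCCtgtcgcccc

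AP-1, the dimer of Fos and Jun proteins, is known to act through TGACTCA in collagenase promoters. These letters, read on both strands, stood 35 to 29 bases before the Mmp13 start and, as TGAGTCA, 44 to 38 bases before the downstream Mmp12 start. The window of the upstream Mmp12 start (chr9:7344147-7344396) is not shown and held none of the patterns searched, AP-1 included. They occurred in 2 of the 8 member promoters and in 4.46% of 32851 promoters of the same length. The GC box GGGCGG occurred in 4 of the 8 (Timp1, Timp2, Timp3 and Mmp14) and in 32.7% of all promoters. TATAA occurred in 2 of the 8 and in 22.8%. The interferon-stimulated response element occurred in 1 of the 8 (Mmp13, minus strand) and in 2.98%. A vitamin D response element of the DR3 type was in 0 of the 8 windows and in 0.0517% of all. None of these patterns overlapped another in the windows shown. A match is a description of letters, not evidence of binding.

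Libraries held 13795946 to 17836796 counts. Levels are given in CPM, counts scaled to a common library size with TMM factors, and levels between genes are compared only as RPKM, which are CPM divided by the exon length of the gene in kilobases. Cx3cr1, which loses 1 allele to the Cre, was lower in Vdr-cKO than in control libraries after MCAO (914 ± 110.4 against 2231 ± 54.7 CPM, SD, n = 4 each). Vdr had 1 to 119 counts per library and 3.68 ± 3.19 CPM in MCAO Vdr-cKO against 2.35 ± 0.910 CPM in MCAO control libraries (SD, n = 4 each, adjusted p = 0.558 from edgeR), so its counts did not separate the genotypes. Counts cover the whole gene, with the undeleted exons. Microglia markers summed to 17552 to 23233 CPM in MCAO Vdr-cKO, 22308 to 24719.6 in MCAO control, 31421 to 33306 in sham Vdr-cKO and 32974 to 40177 in sham control libraries, with 12 of 12 detected in every group. This sum includes Cx3cr1, which after sham had means of 2253 CPM in Vdr-cKO and 4915 CPM in control libraries. The lower Cx3cr1 level in Vdr-cKO libraries is part of the difference between the sums. Monocyte markers summed to 2104 to 5136 CPM in MCAO Vdr-cKO, 3157 to 4449.5 in MCAO control, 282 to 321 in sham Vdr-cKO and 256 to 414 in sham control libraries, with 12 of 12 detected except in sham Vdr-cKO, where S100a4 was at 0. Fn1 was a large part of these sums after MCAO, with means of 1528 CPM in Vdr-cKO and 2475 CPM in control libraries. Ly6c2, Plac8 and Ms4a4c were higher in MCAO Vdr-cKO, with means of 286, 216 and 204 CPM against 23.7, 33.9 and 32.5 CPM. With genotype after MCAO 4 of the 12 rose and 1 fell by edgeR, against 3.24% and 1.64% of all genes. DESeq2 and limma-voom each called 4 higher and 1, F13a1, lower. The monocyte sums overlapped between the genotypes, with medians of 3127 CPM in MCAO Vdr-cKO and 3316 CPM in MCAO control libraries. MCAO Vdr-cKO replicates 1 and 2 had higher monocyte sums (5136 and 3901 CPM) than replicates 3 and 4 (2353 and 2104 CPM). Sham control replicates 2, 4 and 5 held more neutrophil markers than the other sham control libraries, and only the sham control columns carry a read-file ending in their names. That ending cannot be told apart from genotype after sham surgery or from surgery in control mice.

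Surgery moved the whole group. In Vdr-cKO libraries 9 of the 10 members rose with MCAO and 1 fell, where 29.3% of 16357 genes tested rose and 28.8% fell. In control libraries the same 9 rose and Timp3 fell, where 31.2% of 16089 genes tested rose and 32.3% fell. "Rose" and "fell" stand for an adjusted p under 0.05 in edgeR's quasi-likelihood test with Benjamini-Hochberg adjustment. For all 10 members MCAO and sham libraries did not overlap in either genotype, with 9 higher and 1 lower, against 29.9% higher and 30.8% lower of all genes in Vdr-cKO and 27.5% and 25.4% in control libraries. The median log2 fold change of the members was 2.08 in Vdr-cKO and 2.31 in control libraries, and that of all genes tested was -0.02 and -0.05. The members were chosen with earlier results of these data known, so their comparison with all genes is a description only. With upper quartile scaling the median of all genes moved by -0.17 in Vdr-cKO and -0.18 in control libraries and the share of higher calls was 37.9% and 36.3%, against 50.4% and 49.2% with TMM.

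Genotype moved 1 member. After MCAO, Mmp2 rose in Vdr-cKO over control libraries and 0 members fell, where 3.24% of 15286 genes tested rose and 1.64% fell. At an unadjusted p under 0.05, 2 members were higher (Mmp2 and Mmp13) and 0 lower, and DESeq2 and limma-voom each called 1 higher and 0 lower. Mmp2 was also the 1 member whose genotype groups did not overlap, against 6.72% of genes higher and 6.28% lower. After sham surgery 9 members passed the filter on low counts, all but Timp1. Mmp2 rose and 0 fell, where 0.444% of 16425 genes tested rose and 0.0244% fell. There Mmp2 and Mmp14 were higher without overlap and Mmp12 lower without overlap, against 5.09% and 2.65% of all genes. At an unadjusted p under 0.05 the same 2 were higher and Mmp12 was lower, and DESeq2 and limma-voom called 1 higher and 0 lower. The study's rule also asks for a log2 fold change above 1, and 0 members met it with genotype after either surgery.

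**Figure D1:**
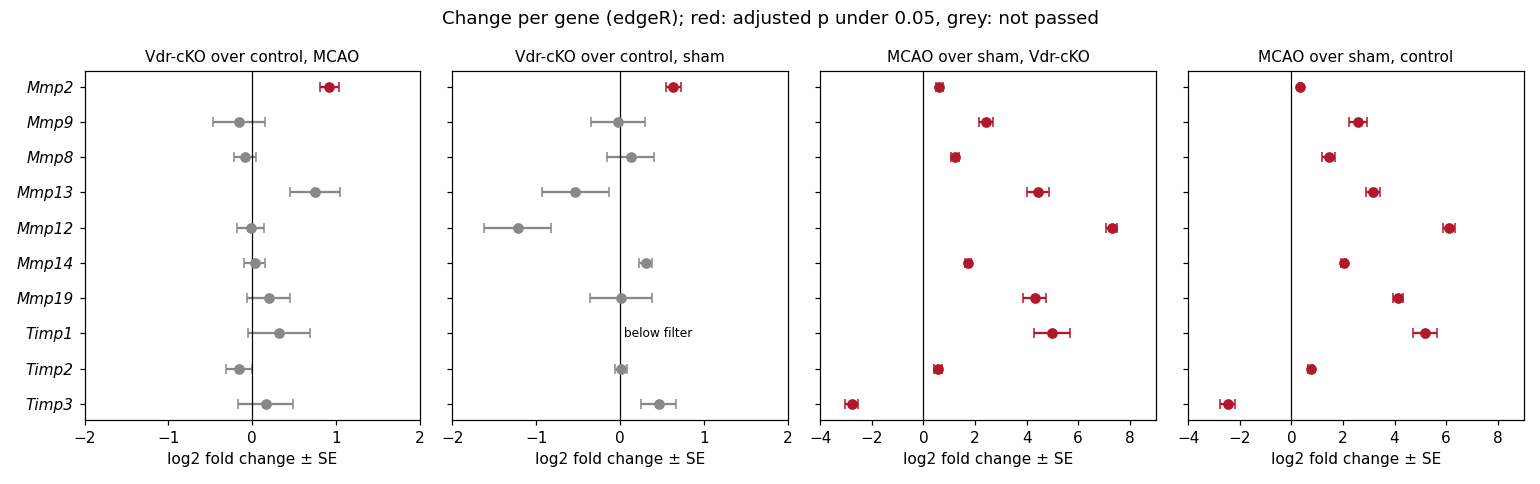
Log2 fold change with standard error of the 10 genes (rows) in the 4 comparisons (columns), from edgeR, with red points for an adjusted p under 0.05. Mmp2 is the only red point for genotype, at 0.92 after MCAO and 0.64 after sham, while with MCAO 9 genes lie to the right and Timp3 to the left, at -2.79 in Vdr-cKO and -2.47 in control libraries.

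Mmp2, gelatinase A (ENSMUSG00000031740, chromosome 8 of GRCm38 from 92827291 to 92853420), was the member that followed the genotype. It had 96.3, 107, 134 and 136 CPM in MCAO Vdr-cKO libraries, against 61.3, 62.0, 62.5 and 62.5 CPM in MCAO control libraries. It had 77.7, 79.8 and 73.4 CPM in sham Vdr-cKO libraries, against 54.2, 41.7, 49.5, 48.8 and 48.0 CPM in sham control libraries. None of the 4 groups overlapped another, and even the sham Vdr-cKO libraries all lay above the MCAO control libraries. The control libraries after MCAO were almost identical, with an SD of 0.561 CPM, whereas the Vdr-cKO libraries after MCAO had an SD of 19.6 CPM. The log2 fold change with genotype was 0.92 (SE 0.11, adjusted p = 0.000600 from edgeR) after MCAO and 0.64 (SE 0.09, adjusted p = 0.00998 from edgeR) after sham surgery. With MCAO it rose by 0.62 in Vdr-cKO (SE 0.13, adjusted p = 0.00193 from edgeR) and by 0.35 in control libraries (SE 0.08, adjusted p = 0.00152 from edgeR). The change with genotype after MCAO minus that after sham was 0.26 (SE 0.15, adjusted p = 0.427 from edgeR), which did not pass.

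The call of Mmp2 after MCAO held in all 17 alternatives, with log2 fold changes of 0.85 to 1.12. Without MCAO Vdr-cKO replicates 1 and 2 it was 1.12 (adjusted p = 5.56e-06 from edgeR). The fold after sham moved little, but its call was lost without sham Vdr-cKO replicate 1 (0.62, adjusted p = 0.0971 from edgeR), without replicate 2 (0.61, adjusted p = 0.102 from edgeR) and without sham control replicates 2, 4 and 5 together (0.55, adjusted p = 0.173 from edgeR). In control libraries the rise with MCAO was 0.17 with upper quartile scaling (adjusted p = 0.0578 from edgeR).

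Mmp2 is also made by fibroblasts and mural cells, whose 12 markers, all detected, summed to 34.9 to 150.0 CPM in MCAO Vdr-cKO, 69.9 to 109 in MCAO control, 104 to 152 in sham Vdr-cKO and 59.2 to 205 in sham control libraries. These ranges overlapped between the genotypes after both surgeries, and 0 of 11 tested markers passed with genotype after MCAO by edgeR (0 at an unadjusted p under 0.05, 0 by DESeq2 and by limma-voom). After sham 0 of 12 passed by edgeR (1 higher at an unadjusted p under 0.05, 0 by DESeq2 and by limma-voom). Of all genes tested, 3.24% rose and 1.64% fell with genotype after MCAO, and 0.444% and 0.0244% after sham. Other marker sums did separate the genotypes after MCAO. Endothelial markers (12 of 12 detected) summed to 118 to 196 CPM in MCAO Vdr-cKO and 94.9 to 117 in MCAO control libraries. T cell markers (10 of 10) summed to 115 to 164 CPM against 80.6 to 97.3, and oligodendrocyte markers (10 of 10) to 169 to 215 CPM against 141 to 156. Single genes made up much of these gaps. Means were 53.9 against 20.8 CPM for endothelial Kdr, 109.5 against 68.1 for Il7r and 90.6 against 52.4 for Cnp. Endothelial Pecam1 (32.0 against 29.1 CPM) and Mbp (65.3 against 68.4) differed little, and Cd28 was lower (11.2 against 14.3). By edgeR 2 of 12 endothelial, 1 of 4 tested T cell and 1 of 7 tested oligodendrocyte markers rose, and 0 fell. Markers of border macrophages (10 of 10) were lower, with 1008 to 1213 CPM in MCAO Vdr-cKO against 1443 to 1754 CPM in MCAO control libraries. After sham surgery each of these sums overlapped between the genotypes. Within MCAO Vdr-cKO libraries Mmp2 was higher in replicates 3 and 4, which held the least endothelial, T cell and monocyte markers and the most microglia markers. Oligodendrocyte sums did not follow this order, with 215, 169, 182 and 178 CPM in replicates 1 to 4. Neither did fibroblast and mural cell sums, with 34.9, 150.0, 112 and 63.5 CPM. The part of these cells in the change of Mmp2 was not tested. In bulk RNA, fewer cells of a type and less RNA per cell cannot be told apart.

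**Figure D2:**
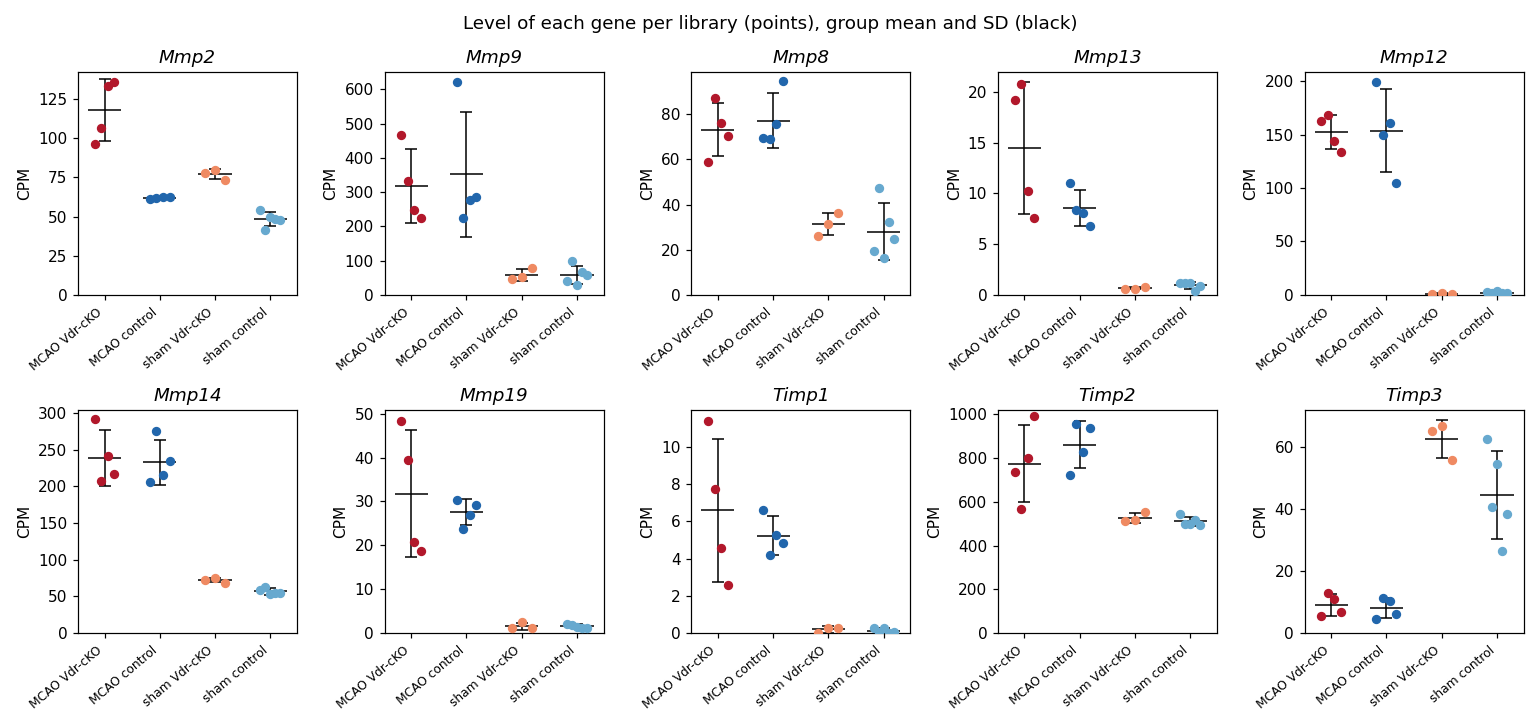
CPM of each gene (panels, y axis from 0) in every library (points) of the 4 groups, with the group mean and SD in black. Mmp2 forms 4 separate levels, from 41.7 CPM in the lowest sham control to 136 CPM in the highest MCAO Vdr-cKO library, and the other genes separate mainly by surgery.

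Mmp9, gelatinase B (ENSMUSG00000017737, chromosome 2 from 164940780 to 164955850), is stored in neutrophil granules and is also made by activated macrophages. It had 466, 332, 248 and 224 CPM in MCAO Vdr-cKO and 622, 224, 276 and 286 CPM in MCAO control libraries. It had 46.3, 51.5 and 78.1 CPM in sham Vdr-cKO and 40.9, 98.3, 27.8, 67.8 and 57.5 CPM in sham control libraries. Every MCAO library was above every sham library, and the genotypes overlapped after each surgery. With MCAO Mmp9 rose 5.41-fold in Vdr-cKO (log2 fold change 2.43, SE 0.27, adjusted p = 2.79e-05 from edgeR) and 6.00-fold in control libraries (2.58, SE 0.36, adjusted p = 4.69e-05). The change with genotype was -0.16 after MCAO (SE 0.31, adjusted p = 0.837 from edgeR). MCAO control replicate 1 alone set its sign, which was 0.27 without it (adjusted p = 0.546 from edgeR). After sham the change with genotype was -0.03 (SE 0.32, adjusted p = 0.982 from edgeR).

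Mmp8, neutrophil collagenase (ENSMUSG00000005800, chromosome 9 from 7558456 to 7568485), had 58.7, 87.0, 76.1 and 70.6 CPM in MCAO Vdr-cKO and 69.4, 68.9, 75.5 and 94.8 CPM in MCAO control libraries. It had 26.2, 31.5 and 36.2 CPM in sham Vdr-cKO and 19.3, 47.5, 16.4, 32.3 and 24.8 CPM in sham control libraries. The surgeries did not overlap and the genotypes did. The rise with MCAO was 2.33-fold in Vdr-cKO (log2 fold change 1.22, SE 0.15, adjusted p = 5.60e-05 from edgeR) and 2.74-fold in control libraries (1.45, SE 0.25, adjusted p = 0.000269). With genotype Mmp8 was at -0.08 after MCAO (SE 0.13, adjusted p = 0.788 from edgeR) and 0.13 after sham (SE 0.28, adjusted p = 0.902), which did not pass. The rise with MCAO was the smallest among the 7 MMPs apart from that of Mmp2.

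Both genes were read beside 13 other neutrophil markers, all detected in every group. Their sum was 1549.9 to 1747 CPM in MCAO Vdr-cKO, 1449 to 2059.7 in MCAO control, 1804 to 2596 in sham Vdr-cKO and 1446 to 2964 in sham control libraries. The MCAO Vdr-cKO sums lay below all sham Vdr-cKO sums, and the control sums overlapped between the surgeries, while Mmp8 and Mmp9 rose in both genotypes. In control libraries 1 of 12 tested neutrophil markers rose with MCAO and 7 fell, against 31.2% and 32.3% of all genes. In Vdr-cKO libraries 1 of 13 rose and 10 fell, against 29.3% and 28.8% of all genes. The one that rose in both was Cxcr2, a chemokine receptor of mature neutrophils, by 3.29 in Vdr-cKO and 3.12 in control libraries on the log2 scale. Ngp, a granule protein of immature neutrophils, had 30.8 ± 11.9 CPM in MCAO Vdr-cKO and 255 ± 90.4 CPM in sham Vdr-cKO libraries (SD, n = 4 and 3). In control libraries Ngp had 31.9 ± 24.0 CPM after MCAO and 228 ± 126 CPM after sham (SD, n = 4 and 5). Retnlg and Ly6g, also on the list, were lower after MCAO as well. In Vdr-cKO libraries Retnlg had means of 16.1 CPM after MCAO and 46.5 CPM after sham, and Ly6g 1.36 and 4.84 CPM. In control libraries Retnlg had means of 15.1 and 33.6 CPM, and Ly6g 0.754 and 4.50 CPM. Cxcr2 had means of 89.96 CPM in MCAO Vdr-cKO and 80.43 CPM in MCAO control libraries. Cxcr2, Ngp, Retnlg and Ly6g together were a small part of the sum, and other markers on the list carried most of it. Whether those other markers are limited to neutrophils in these samples was not tested.

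Across libraries Mmp9 moved with the neutrophil sum under both surgeries and Mmp8 under sham surgery. After removal of group means, Pearson's r of log2 Mmp9 with log2 of the sum was 0.92 over the 8 MCAO libraries and 0.99 over the 8 sham libraries. Without the 2 libraries farthest from the median sum it was 0.79 and 0.98. For Mmp8 it was -0.26 over the 8 MCAO libraries and 0.96 over the 8 sham libraries, and -0.40 and 0.87 without the 2 farthest. The points share their libraries and scaling, and the values are a description only. In MCAO control libraries the 1 with the highest Mmp9, replicate 1, also had the highest neutrophil sum (2059.7 CPM) and monocyte sum (4449.5 CPM). Most of the sum came from markers other than Cxcr2, Ngp, Retnlg and Ly6g, so it may not follow the number of neutrophils. The part of neutrophils in these levels was not tested.

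**Figure D3:**
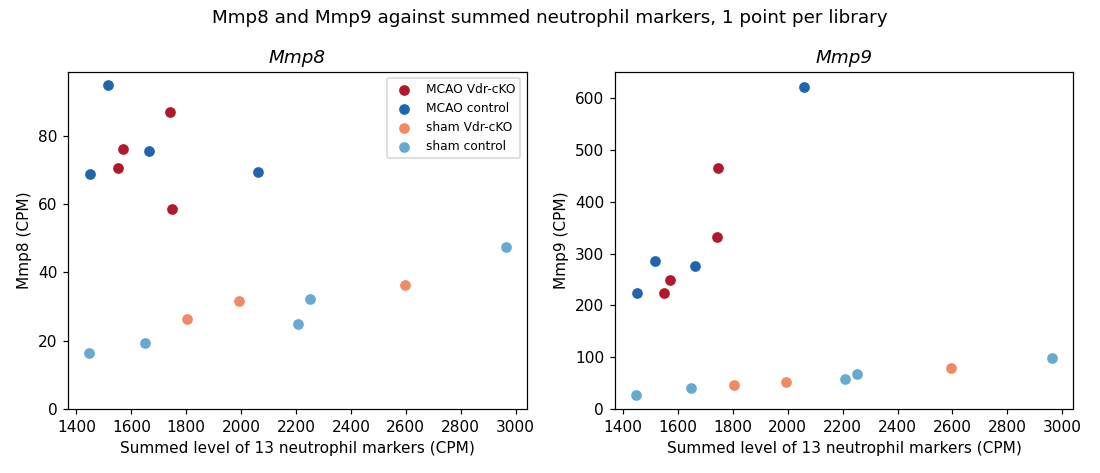
CPM of Mmp8 (left) and Mmp9 (right) against the summed CPM of 13 neutrophil markers, 1 point per library. Sham libraries rise together with the sum, from 16.4 to 47.5 CPM for Mmp8 and from 27.8 to 98.3 CPM for Mmp9. Every MCAO library lies above every sham library, and the highest Mmp9, 622 CPM, belongs to the MCAO control library with the highest sum.

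Mmp13, the collagenase with the AP-1 letters shown above (ENSMUSG00000050578, chromosome 9 from 7272514 to 7283331), had 19.1, 20.8, 10.3 and 7.55 CPM in MCAO Vdr-cKO and 11.0, 8.33, 8.03 and 6.75 CPM in MCAO control libraries. It had 0.619, 0.587 and 0.775 CPM in sham Vdr-cKO and 1.13, 1.19, 1.12, 0.420 and 0.827 CPM in sham control libraries, from 7 to 20 counts each. MCAO Vdr-cKO replicates 1 and 2 were above every control library, and replicates 3 and 4 were within the control range. With MCAO Mmp13 rose 21.6-fold in Vdr-cKO (log2 fold change 4.43, SE 0.43, adjusted p = 1.11e-05 from edgeR) and 8.99-fold in control libraries (3.17, SE 0.27, adjusted p = 8.02e-07). The change with genotype after MCAO was 0.75 (SE 0.29, adjusted p = 0.189 from edgeR), and 0.07 (adjusted p = 0.903) without replicates 1 and 2 of MCAO Vdr-cKO. After sham it was -0.53 (SE 0.40, adjusted p = 0.649 from edgeR), and the groups overlapped.

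Mmp12, the macrophage elastase (ENSMUSG00000049723, chromosome 9 from 7344381 to 7369499), showed the largest fold change of the 10 members with MCAO in both genotypes. It had 163, 168, 144 and 134 CPM in MCAO Vdr-cKO and 199, 149.8, 161 and 104 CPM in MCAO control libraries. It had 0.990, 1.35 and 0.536 CPM in sham Vdr-cKO and 2.75, 1.73, 3.29, 1.44 and 1.78 CPM in sham control libraries, from 9 to 50 counts each. After MCAO the genotypes overlapped, and after sham all Vdr-cKO libraries lay below all control libraries. The rise with MCAO was 157-fold in Vdr-cKO (log2 fold change 7.30, SE 0.21, adjusted p = 8.45e-09 from edgeR) and 69.7-fold in control libraries (6.12, SE 0.24, adjusted p = 9.17e-10). With genotype the log2 fold change was -0.02 after MCAO (SE 0.16, adjusted p = 0.967 from edgeR) and -1.22 after sham (SE 0.40, adjusted p = 0.319), where no alternative gave an adjusted p below 0.161.

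For the difference between these genotype changes, 0 of 10 members passed by edgeR, where 2.55% of 17335 genes tested passed in either direction. At an unadjusted p under 0.05, 2 were more positive after MCAO and 0 more negative. They were Mmp12 (1.17, SE 0.40, adjusted p = 0.163 from edgeR) and Mmp13 (1.26, SE 0.52, adjusted p = 0.261 from edgeR). DESeq2 called 1, Mmp12 (1.19, adjusted p = 0.0288), and limma-voom called 0. For Mmp12 the adjusted p ran from 0.0288 to 0.428 over the 24 alternatives that gave a value.

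Mmp12, Mmp13 and Mmp8 lie in a cluster on chromosome 9 with Mmp1b, Mmp3, Mmp10, Mmp27 and Mmp7, between positions 7272514 and 7699585. Mmp27, a neighbor of Mmp8 (7571396 to 7581885), had 97 to 211 counts per library in MCAO Vdr-cKO and 0 to 2 in sham Vdr-cKO libraries. In control libraries it had 100 to 226 counts after MCAO and 0 to 2 after sham. The ratio of summed counts scaled by library size, MCAO over sham, was 182 in Vdr-cKO (95% exact interval 62.0 to 884) and 155 in control libraries (71.0 to 425), and the intervals cover counting error only. The rise passed in both genotypes (adjusted p = 1.08e-06 and 2.45e-08 from edgeR). Mmp3, stromelysin 1, had 0 to 9 counts in MCAO Vdr-cKO and 3 to 15 in MCAO control libraries, Mmp10, stromelysin 2, had 0 to 6 and 2 to 8, and Mmp7, matrilysin, had 0 to 2 and 0 to 3. All of these were at 0 in the 8 sham libraries, where a count of 0 allows up to 0.176 to 0.197 CPM per library. Mmp1b had 0 to 1 counts in every library.

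Mmp14, the membrane-type enzyme that acts on the MMP2 precursor (ENSMUSG00000000957, chromosome 14 from 54431612 to 54445364), had 292, 207, 241 and 216 CPM in MCAO Vdr-cKO and 206, 275, 216 and 235 CPM in MCAO control libraries. It had 72.3, 74.7 and 68.8 CPM in sham Vdr-cKO and 59.3, 63.4, 52.8, 54.8 and 54.1 CPM in sham control libraries. The genotypes overlapped after MCAO, and after sham every Vdr-cKO library was above every control library. The rise with MCAO was 3.32-fold in Vdr-cKO (log2 fold change 1.73, SE 0.13, adjusted p = 1.60e-06 from edgeR) and 4.08-fold in control libraries (2.03, SE 0.09, adjusted p = 4.47e-09). With genotype after sham the log2 fold change was 0.31 (SE 0.08, adjusted p = 0.174 from edgeR), which did not pass, and no alternative gave an adjusted p below 0.0617. After MCAO it was 0.03 (SE 0.12, adjusted p = 0.925 from edgeR).

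Mmp19, an MMP that cuts basement membrane proteins (ENSMUSG00000025355, chromosome 10 from 128790910 to 128800824), had 48.4, 39.4, 20.7 and 18.6 CPM in MCAO Vdr-cKO and 30.2, 23.6, 27.0 and 29.3 CPM in MCAO control libraries. It had 1.18, 2.52 and 1.07 CPM in sham Vdr-cKO and 2.15, 1.84, 1.45, 1.08 and 1.21 CPM in sham control libraries. The control libraries after MCAO lay between the pairs of MCAO Vdr-cKO libraries, replicates 1 and 2 above and replicates 3 and 4 below. With MCAO it rose 19.8-fold in Vdr-cKO (log2 fold change 4.31, SE 0.43, adjusted p = 1.41e-05 from edgeR) and 17.6-fold in control libraries (4.14, SE 0.19, adjusted p = 3.64e-09). The change with genotype after MCAO was 0.20 (SE 0.26, adjusted p = 0.738 from edgeR) and became -0.48 (adjusted p = 0.0639) without replicates 1 and 2 of MCAO Vdr-cKO. After sham it was 0.01 (SE 0.37, adjusted p = 0.995 from edgeR). Exons of Mmp19 share 789 bases with Tmem198b on the other strand, and the strand setting of the counting is not stated, so its level is uncertain. Tmem198b had 14.6 ± 1.41 CPM in MCAO Vdr-cKO and 18.3 ± 2.67 CPM in sham Vdr-cKO libraries, and 15.6 ± 0.853 CPM after MCAO and 20.8 ± 2.26 CPM after sham in control libraries (SD, n = 4, 3, 4 and 5), lower after MCAO where Mmp19 was higher.

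Among the inhibitors, Timp1 (ENSMUSG00000001131, chromosome X from 20870166 to 20874735), the inducible TIMP, was nearly absent after sham surgery. It had 11.4, 7.75, 4.57 and 2.61 CPM in MCAO Vdr-cKO and 6.61, 4.17, 5.28 and 4.83 CPM in MCAO control libraries. Sham libraries held 0, 5 and 5 counts in Vdr-cKO and 5, 1, 4, 0 and 1 counts in control mice, against 39 to 163 and 64 to 100 counts after MCAO. All MCAO libraries were above all sham libraries, and the MCAO control range lay inside that of MCAO Vdr-cKO. The log2 fold change with MCAO was 4.98 in Vdr-cKO (SE 0.71, adjusted p = 0.000151 from edgeR) and 5.18 in control libraries (SE 0.47, adjusted p = 1.22e-06), sizes that rest on these few sham counts. With genotype after MCAO it was 0.32 (SE 0.37, adjusted p = 0.692 from edgeR), and -0.53 (adjusted p = 0.340) without MCAO Vdr-cKO replicates 1 and 2. Timp1 lies in an intron of Syn1 on the other strand with 0 shared exonic bases.

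Timp2 (ENSMUSG00000017466, chromosome 11 from 118301069 to 118355740), the partner of MMP14, had 738, 566, 800.3 and 994 CPM in MCAO Vdr-cKO and 721, 954, 828 and 937 CPM in MCAO control libraries. It had 512, 516 and 552 CPM in sham Vdr-cKO and 542, 499, 500.4, 516 and 494 CPM in sham control libraries. The sham libraries were close to each other, and the lowest MCAO library, Vdr-cKO replicate 2, was just above the highest sham library. Timp2 rose 1.47-fold with MCAO in Vdr-cKO (log2 fold change 0.56, SE 0.16, adjusted p = 0.0132 from edgeR) and 1.68-fold in control libraries (0.75, SE 0.09, adjusted p = 9.36e-06). With upper quartile scaling the Vdr-cKO value was 0.38 (adjusted p = 0.0619 from edgeR). The change with genotype was -0.16 after MCAO (SE 0.16, adjusted p = 0.639 from edgeR) and 0.01 after sham (SE 0.07, adjusted p = 0.961).

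Timp3 (ENSMUSG00000020044, chromosome 10 from 86300372 to 86349506), the TIMP that binds to the matrix, was the member that fell. It had 5.38, 13.004, 11.1 and 6.68 CPM in MCAO Vdr-cKO and 4.63, 11.3, 10.3 and 6.09 CPM in MCAO control libraries. It had 65.3, 66.98 and 55.8 CPM in sham Vdr-cKO and 62.6, 40.8, 54.7, 26.4 and 38.6 CPM in sham control libraries. The lowest sham library, control replicate 4, still exceeded the highest MCAO library. The log2 fold change with MCAO was -2.79 in Vdr-cKO (SE 0.24, adjusted p = 5.65e-06 from edgeR) and -2.47 in control libraries (SE 0.29, adjusted p = 1.35e-05). With genotype it was 0.16 after MCAO (SE 0.33, adjusted p = 0.840 from edgeR) and 0.46 after sham (SE 0.21, adjusted p = 0.456). Timp3 is strong in mural and endothelial cells, and 5 of 11 tested fibroblast and mural cell markers also fell with MCAO in each genotype, with 1 rising in Vdr-cKO and 2 in control libraries. Of 12 endothelial markers 6 fell and 3 rose in Vdr-cKO, and 5 fell and 0 rose in control libraries. Of all genes tested, 28.8% fell and 29.3% rose in Vdr-cKO, and 32.3% fell and 31.2% rose in control libraries. The part of these cells in the fall was not tested. Syn3, which shares 1733 exonic bases on the other strand, held 265 counts over all libraries against 7794 for Timp3.

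Per length, Timp2 was the most abundant of the 10 genes in all 4 groups, with a mean of 199 ± 45.3 RPKM in MCAO Vdr-cKO, 221 ± 27.7 in MCAO control, 135 ± 5.69 in sham Vdr-cKO and 131 ± 5.05 in sham control libraries (SD, n = 4, 4, 3 and 5). It made up 93.4% to 98.5% of the summed RPKM of the 3 inhibitors in MCAO Vdr-cKO and 93.9% to 97.6% in the other groups. After MCAO Mmp9 came next, with 89.8 ± 30.9 RPKM in Vdr-cKO and 99.4 ± 51.4 RPKM in control libraries, followed by Mmp14 with 40.1 ± 6.38 and 39.0 ± 5.14 RPKM. After sham surgery Mmp2 was second in Vdr-cKO libraries (22.8 ± 0.959 RPKM) and Mmp9 in control libraries (16.5 ± 7.65 RPKM), where Mmp2 followed it (14.4 ± 1.32 RPKM). Mmp12 was among the lowest of the 10 after sham surgery, at 0.132 ± 0.0563 RPKM in Vdr-cKO and 0.303 ± 0.108 RPKM in control libraries. After MCAO it was in the middle of the 10, at 21.03 ± 2.20 and 21.2 ± 5.37 RPKM.

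The summed RPKM of the 7 MMPs over that of the 3 TIMPs was 0.756 to 1.53 in MCAO Vdr-cKO and 0.745 to 1.54 in MCAO control libraries, against 0.428 to 0.477 in sham Vdr-cKO and 0.291 to 0.538 in sham control libraries. Every MCAO library was above every sham library, and the genotypes overlapped after both surgeries. The ratio is one of RNA levels and says nothing of enzyme activity.

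**Figure D4:**
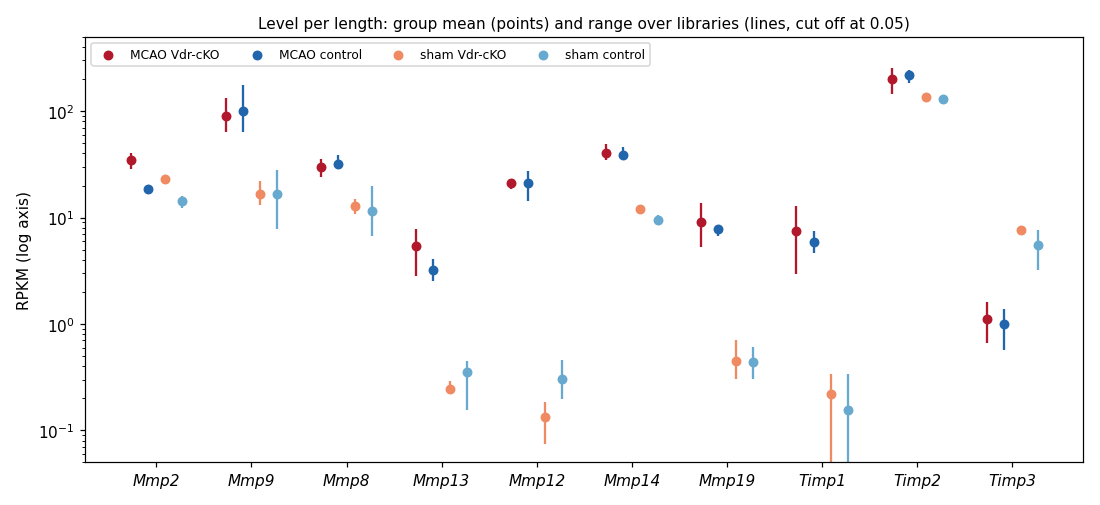
Mean RPKM (points, log axis) and range over libraries (lines) of the 10 genes in the 4 groups. Timp2 stands highest, at 131 to 221 RPKM on average, and Mmp12, Mmp13, Mmp19 and Timp1 lie below 1 RPKM after sham surgery.

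The spread inside MCAO Vdr-cKO followed the libraries. Replicates 1 and 2, with the higher monocyte sums, had the higher Mmp9, Mmp13, Mmp12, Mmp19 and Timp1, and the lower Mmp2 and Timp2. For Mmp19 these were 48.4 and 39.4 against 20.7 and 18.6 CPM, and for Mmp2 96.3 and 107 against 134 and 136 CPM. Mmp8, Mmp14 and Timp3 did not follow this order. Of 12 monocyte markers 4 rose and 1 fell with genotype after MCAO by edgeR, and their part in the levels of these members was not tested.

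Of the other 18 genes of the family (further MMPs, Timp4 and Reck, a membrane-anchored inhibitor of MMPs), 16 were found in the counts. With MCAO 2 of 7 tested rose and 5 fell in Vdr-cKO libraries, against 29.3% and 28.8% of all genes. In control libraries 1 of 8 rose and 6 fell, against 31.2% and 32.3% of all genes. Their median log2 fold change was -1.64 in Vdr-cKO and -1.28 in control libraries, where the 10 members had 2.08 and 2.31. Both lists were chosen with earlier results of these data known, so this contrast is a description only. Mmp15, a membrane-type MMP, had 4.43 ± 1.51 CPM in MCAO Vdr-cKO and 30.9 ± 2.80 CPM in sham Vdr-cKO libraries (SD, n = 4 and 3, log2 fold change -2.79, adjusted p = 3.19e-06 from edgeR). In control libraries Mmp15 had 4.82 ± 0.685 CPM after MCAO and 23.1 ± 8.96 CPM after sham (SD, n = 4 and 5, log2 fold change -2.27, adjusted p = 9.08e-06 from edgeR). Reck fell by 1.42 on the log2 scale in Vdr-cKO (adjusted p = 3.75e-05 from edgeR) and by 1.26 in control libraries (adjusted p = 0.00190).

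Mmp25, a membrane-anchored MMP known from leukocytes, was the 1 gene of this list that rose with genotype after MCAO. It had 20.3 ± 6.51 CPM in MCAO Vdr-cKO and 10.5 ± 1.80 CPM in MCAO control libraries (SD, n = 4 each), with ranges of 15.4 to 29.9 and 8.79 to 12.3 CPM that did not overlap. The log2 fold change was 0.94 (SE 0.21, adjusted p = 0.0226 from edgeR). After sham it was -0.03 (SE 0.30, adjusted p = 0.981 from edgeR), and the difference between the surgeries was 0.95 (SE 0.39, adjusted p = 0.265), which did not pass.

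**Figure D5:**
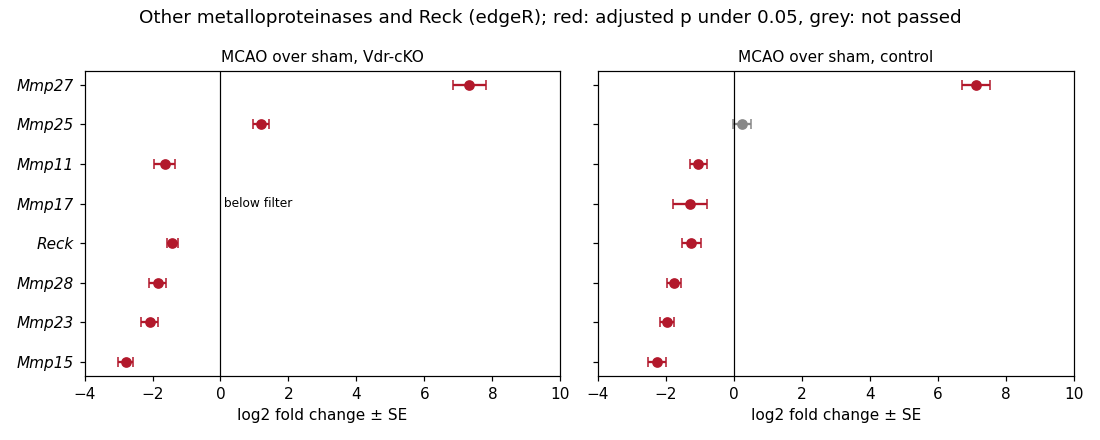
Log2 fold change with standard error of MCAO over sham for other metalloproteinases and Reck in Vdr-cKO (left) and control (right) libraries, from edgeR, with red points for an adjusted p under 0.05. Mmp27 lies far to the right, and Mmp15, Mmp23, Mmp28, Reck and Mmp11 lie to the left in both panels.

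Of 18 tested activators and binding partners of MMPs, 10 rose with MCAO and 4 fell in Vdr-cKO, against 29.3% and 28.8% of all genes. In control libraries 11 of the 18 rose and 3 fell, against 31.2% and 32.3% of all genes. Spp1, osteopontin, which is cut by several MMPs, had 6089 ± 1699 CPM in MCAO Vdr-cKO and 4.42 ± 1.29 CPM in sham Vdr-cKO libraries (SD, n = 4 and 3). In control libraries it had 8933 ± 2971 CPM after MCAO and 4.45 ± 2.13 CPM after sham (SD, n = 4 and 5). Cd44, a docking site for MMP9 at the cell surface, rose by 3.88 in Vdr-cKO and 3.69 in control libraries on the log2 scale (adjusted p = 1.48e-06 and 2.14e-09 from edgeR). With genotype 0 of 16 passed after MCAO by edgeR (2 higher and 2 lower at an unadjusted p under 0.05, 0 higher and 2 lower by DESeq2, 0 by limma-voom). After sham 0 of 18 passed by edgeR (2 higher and 0 lower at an unadjusted p under 0.05, 1 higher by DESeq2, 0 by limma-voom). Of all genes tested, 3.24% rose and 1.64% fell with genotype after MCAO, and 0.444% and 0.0244% after sham.

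Of 11 tested ADAM proteases, relatives of the MMPs that shed membrane proteins and are in part blocked by TIMP3, 5 rose and 1 fell in Vdr-cKO and 6 rose and 1 fell in control libraries. Adam8, a leukocyte ADAM, rose by 4.73 and 4.48 on the log2 scale (adjusted p = 3.75e-07 and 1.31e-08 from edgeR). Of 13 transcription factors known from MMP and TIMP promoters, 6 rose and 4 fell in Vdr-cKO, and 4 rose and 6 fell in control libraries. For both lists, the shares of all genes were 29.3% rising and 28.8% falling in Vdr-cKO, and 31.2% and 32.3% in control libraries. Ets2 rose by 1.56 and 1.46 and Ets1 fell by 1.34 and 1.07 (adjusted p = 0.000406 and 1.06e-05 for Ets2, 2.98e-06 and 2.95e-08 for Ets1, from edgeR). Etv4, an ETS factor, rose with genotype after MCAO (1.25, SE 0.32, adjusted p = 0.0480 from edgeR), which limma-voom did not call.

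Among 16 matrix genes that MMPs can cut, 5 rose and 5 fell with MCAO in Vdr-cKO, and 6 rose and 5 fell in control libraries. Of all genes tested, 29.3% rose and 28.8% fell in Vdr-cKO, and 31.2% rose and 32.3% fell in control libraries. Fn1, fibronectin, had 1528 ± 723 CPM in MCAO Vdr-cKO and 43.5 ± 2.83 CPM in sham Vdr-cKO libraries (SD, n = 4 and 3), and 2475 ± 467 CPM in MCAO control and 37.9 ± 7.43 CPM in sham control libraries (SD, n = 4 and 5). Agrn, the heparan sulfate proteoglycan agrin of basement membranes, was the 1 matrix gene that rose with genotype after MCAO. It had 90.8 ± 11.3 CPM in MCAO Vdr-cKO and 47.5 ± 2.87 CPM in MCAO control libraries (SD, n = 4 each, log2 fold change 0.93, adjusted p = 0.000198 from edgeR). After sham it had 60.7 ± 7.86 CPM in Vdr-cKO and 60.1 ± 7.01 CPM in control libraries (SD, n = 3 and 5), and the difference between the surgeries passed (0.92, adjusted p = 0.00216 from edgeR).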

How the data were processed

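The authors deposited a table of raw counts per gene for 16 libraries. The submitters' notes name GRCm38, but only 695 of 31489 identifiers had the start and end of GENCODE M21 (31024 had its length), so the positions in the table were not used. Tools listed in the submitters' processing notes were HISAT2 2.1.0, TopHat, limma and bcl2fastq. The counting tool, annotation and strand setting are not given in the sources used here. Genes with no symbol (240) held 0.0669% to 0.163% of the counts. Groups were taken from the sample labels. CPM used TMM-scaled library sizes, and RPKM the summed exon length of GENCODE M21, which also gave positions and overlaps.

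Each pair of groups was fitted in edgeR 4.0.16 (R 4.3.3) by the quasi-likelihood test after filterByExpr, without a replicate block, with Benjamini-Hochberg adjustment over all genes tested. The genotype by surgery interaction used all 16 libraries. Tests were checked on simulated counts. Alternatives were other scaling factors, filters, DESeq2 1.42.0, limma-voom (limma 3.58.1), 1 fit of all libraries, a replicate block, and fits without single or doubted libraries. Named genes were all 10 members, up to 4 genes per list with the smallest adjusted p, and any gene a result on a member turned on. Reck was chosen after its values were seen. Members and lists were chosen with earlier results of these data known. Depth was 13795946 to 17836796 counts per library, and 3 counts are worth 0.176 to 0.211 CPM.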

Additional observations from a re-analysis of the deposited data

Results flagged for a closer look

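Mmp9 in MCAO control replicate 1 stood far from the other libraries of its group, with 622 CPM against 224 to 286 CPM in the other MCAO control libraries. The gap to the nearest library was 0.845 of the whole range of the group. Of 30 sets of values tested in this way 1 was marked, and chance marks about 1 in 20. The same library held the highest neutrophil marker sum (2059.7 CPM) and the highest monocyte marker sum (4449.5 CPM) of its group. Without it the log2 fold change of Mmp9 with genotype after MCAO was 0.27, against -0.16 with it, and neither value passed.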

How the results depend on the processing

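Mmp2 with genotype after MCAO and all surgery calls on members kept their direction under every alternative that gave a value, and the surgery calls lost were those of Mmp2 in control libraries (0.17) and Timp2 in Vdr-cKO libraries (0.38), both with upper quartile scaling. The cause of the changes below was not tested.

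The number of genes lower with genotype after MCAO was 512 by DESeq2 against 250 in edgeR, and 103 to 257 without single libraries. After sham, 73 genes were higher and 4 lower in edgeR, against 124 and 16 with no filter, 178 and 70 by DESeq2, 147 and 13 with all 16 libraries in 1 fit, and 5 and 0 without sham control replicates 2, 4 and 5, and 6 to 161 and 0 to 19 without single libraries. Members higher after sham were 0 without those 3 libraries and 0 to 1 without single libraries. For the interaction, 243 genes were higher and 199 lower, against 398 and 350 by DESeq2, 122 and 60 without sham control replicates 2, 4 and 5, and 166 to 368 and 105 to 358 without single libraries, and DESeq2 called 1 member, Mmp12 (1.19).

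Replicate numbers paired the samples little over all genes. Correlations of same-numbered libraries were -0.07 to 0.33 for genotype after MCAO, and over 0.1 in 1 of 4 pairs. Timp3 did follow the number after MCAO. Its levels were 5.38, 13.004, 11.1 and 6.68 CPM in Vdr-cKO and 4.63, 11.3, 10.3 and 6.09 CPM in control replicates 1 to 4. A fit with the replicate block gave, after sham, 3 higher and 0 lower genes. In it 0 members were higher (Mmp2 0.64, adjusted p = 0.369 from edgeR), 117 genes were lower in the interaction, Mmp12 after MCAO was 0.0114, and Mmp9 and Mmp19 after sham were 0.20 and -0.29. It changed no other member call.

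Uncalled values that changed sign were as follows. With genotype after MCAO, Mmp12 was 0.0124 by limma-voom, and without MCAO Vdr-cKO replicates 1 and 2 Mmp14 was -0.0262, Mmp19 -0.48, Timp1 -0.53 and Timp2 0.0594. Without single libraries Mmp9 ran from -0.39 to 0.27, Mmp8 from -0.178 to 0.0297, Mmp12 from -0.17 to 0.13, Mmp14 from -0.0747 to 0.122, Mmp19 from -0.0722 to 0.388, Timp1 from -0.0715 to 0.588 and Timp3 from -0.0617 to 0.369. After sham, limma-voom gave 0.0572 for Mmp9 and -0.0563 for Mmp19, 1 fit of all libraries gave 0.00326 for Mmp9, and leaving out sham control replicates 2, 4 and 5 gave 0.75 for Mmp9, -0.20 for Mmp19 and -0.00821 for Timp2. Without single libraries Mmp9 ran from -0.29 to 0.24, Mmp8 from -0.0120 to 0.400, Mmp19 from -0.48 to 0.23 and Timp2 from -0.0152 to 0.0337. In the interaction, Mmp19 was -0.53 and Timp2 0.0137 without MCAO Vdr-cKO replicates 1 and 2, and Timp1 0.81 and Timp3 0.0720 without sham control replicates 2, 4 and 5. Without single libraries Mmp9 ran from -0.42 to 0.28, Mmp19 from -0.11 to 0.65 and Timp1 from -0.74 to 0.19. Low sham counts limit the fold changes of Timp1, Mmp12 and Mmp13.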

Other observations

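The genes whose levels varied most like each member between libraries of the same group were found by Pearson's r of log2(CPM + 0.5) after removal of group means, over 16 libraries, and are a description only. Timp3 was closest to Enpp2 (0.97), Nedd4 and Abat, and Timp2 to Champ1 (0.91), Itm2b and Ttyh1. Mmp9 was closest to Zdhhc18 (0.96), Ltb4r1 and Chil3, of which Ltb4r1 is a leukotriene receptor and Chil3 a lectin of myeloid cells. Mmp13 was closest to Sema3c (0.93), Ier3 and Slc2a1, and Timp1 to Dync1h1 (0.94), Crybg1 and Slc7a11. Mmp2, the member that differed with genotype, had the lowest leading value of the 10 (Snph, 0.83).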
